A study of Mus musculus with 8 samples.

Results

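Interferon-induced genes and genes of antigen presentation were examined in mouse liver under a high-fat diet, given with and without betaine, a methyl donor of one-carbon metabolism. The set comprised 34 genes listed by symbol, and all 34 were found among the 24539 gene entries of the RNA-seq values and the 25033 entries of the Ribo-seq values. They fell into 6 lists: 5 MHC class I chains, 3 genes of class I peptide loading, 5 MHC class II genes, 2 MHC transactivators, 11 genes of the type I interferon response and 8 of the type II interferon response. The rule that defines the set names genes by function and uses no measured value. The genes and lists were, however, chosen with earlier results of these data known.

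Interferons are antiviral cytokines, type I being released by cells that sense viral nucleic acids and type II mainly by T and NK cells. Type I interferons act through the receptor IFNAR and the complex ISGF3, which contains STAT2 and IRF9 and binds the interferon-stimulated response element (ISRE) of genes such as Ifit1 and Isg15. Type II interferon (interferon gamma) acts on genes that hold the gamma-activated site (GAS), raises IRF1 and induces the guanylate-binding proteins and the immunity-related GTPases. MHC class I molecules, a heavy chain with beta-2 microglobulin, carry peptides loaded by TAP and tapasin on nearly every cell, hepatocytes included. MHC class II molecules are carried by professional antigen-presenting cells, which in liver are Kupffer cells, dendritic cells and B cells. NLRC5 and CIITA are the transactivators of the class I and class II genes, and act at promoters that hold a conserved Y box.

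The HF group was male C57BL/6 mice on a diet with 45% of its energy from fat, started at 8 weeks of age. The HB group received the same diet together with 2% (w/v) betaine dissolved in the water, so all mice compared here were on the high-fat diet. Livers were taken at week 25 (the labels give 25 weeks of diet, and the ages give 17). Each group had 6 mice and 2 libraries per assay, named HF1, HF2, HB1 and HB2, of polyadenylated mRNA (RNA-seq) and of ribosome-protected fragments (RPFs, by Ribo-seq). The study states that 2 mice of each group were sequenced while the labels describe pooled RNA, so n counts libraries, and p-values measure only the spread between libraries. Livers of mice on a standard diet were not analysed here.

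The promoters show what the lists have in common at the level of sequence. Windows from 250 bases before to 50 bases after each annotated start (RefSeq, build GRCm38.p6) were found for 27 of the 34 genes, and 21 of these held at least 1 match to an ISRE, a GAS or a Y box. The ISRE was searched as TTTC and TTTC with NN between them, the GAS as TTCNNNGAA and the Y box as CTGATTGG, where N is any base, all on both strands, and matches of the ISRE were allowed to overlap. An ISRE match was present in 13 of the 27 genes, against 3.99% of 27025 genes with a window, and 3.44% of 32851 windows held one. It was found in 6 of 10 genes of the type I list (Ifit1, Ifit3, Isg15, Rsad2, Bst2 and Stat2), in 5 of 7 of the type II list (Gbp2, Gbp3, Igtp, Irgm1 and Irgm2) and in 2 of 5 class I chains (B2m and H2-T23). GAS matches were present in 6 of the 27 genes, against 9.55% of all genes, namely Ifit2, Bst2, Ifi35, Igtp, Irf1 and Irgm2. Y box matches were present in 6 of the 27, against 4.70%, all of them MHC genes or Tap1 (H2-K1, H2-D1, H2-T23, Tap1, H2-Aa and H2-Eb1). A match is a description of the letters in the window, and no binding was measured.

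The stretches below carry these matches in capitals, with 20 bases on either side, and were chosen because their genes are described in the results. They run 5′ to 3′ on the strand of the gene. Stat2 and Ifit1 are type I genes whose mRNA fell in HB, and Ifit1 has 2 ISRE matches, whereas Isg15 has 3 that overlap.
Stat2, chr10:128270256-128270305, forward strand: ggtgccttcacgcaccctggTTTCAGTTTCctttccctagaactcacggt
Ifit1, chr19:34640765-34640833, forward strand: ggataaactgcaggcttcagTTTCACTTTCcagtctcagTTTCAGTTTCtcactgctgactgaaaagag
Isg15, chr4:156200855-156200916, reverse strand: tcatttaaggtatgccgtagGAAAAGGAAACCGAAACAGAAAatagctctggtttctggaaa
Igtp and Irgm2 are neighbouring immunity-related GTPases of the type II list. Each has a GAS match followed by an ISRE match on the reverse strand, and the printed stretches are identical at 59 of 61 bases.
Igtp, chr11:58199491-58199551, forward strand: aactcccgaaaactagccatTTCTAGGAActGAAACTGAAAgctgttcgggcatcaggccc
Irgm2, chr11:58214882-58214942, forward strand: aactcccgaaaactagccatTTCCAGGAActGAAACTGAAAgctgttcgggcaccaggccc
The class I genes H2-T23 and H2-D1 and the class II gene H2-Eb1 have a Y box close to the start site, on the reverse strand in the first 2, and H2-T23 also has an ISRE match upstream of it.
H2-T23, chr17:36032726-36032845, reverse strand: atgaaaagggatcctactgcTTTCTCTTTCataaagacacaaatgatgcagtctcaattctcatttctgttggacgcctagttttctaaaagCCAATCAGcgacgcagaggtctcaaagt
H2-D1, chr17:35263021-35263068, forward strand: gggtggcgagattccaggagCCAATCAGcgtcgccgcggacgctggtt
H2-Eb1, chr17:34305785-34305832, forward strand: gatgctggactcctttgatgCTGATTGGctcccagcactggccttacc

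**Figure D1:**
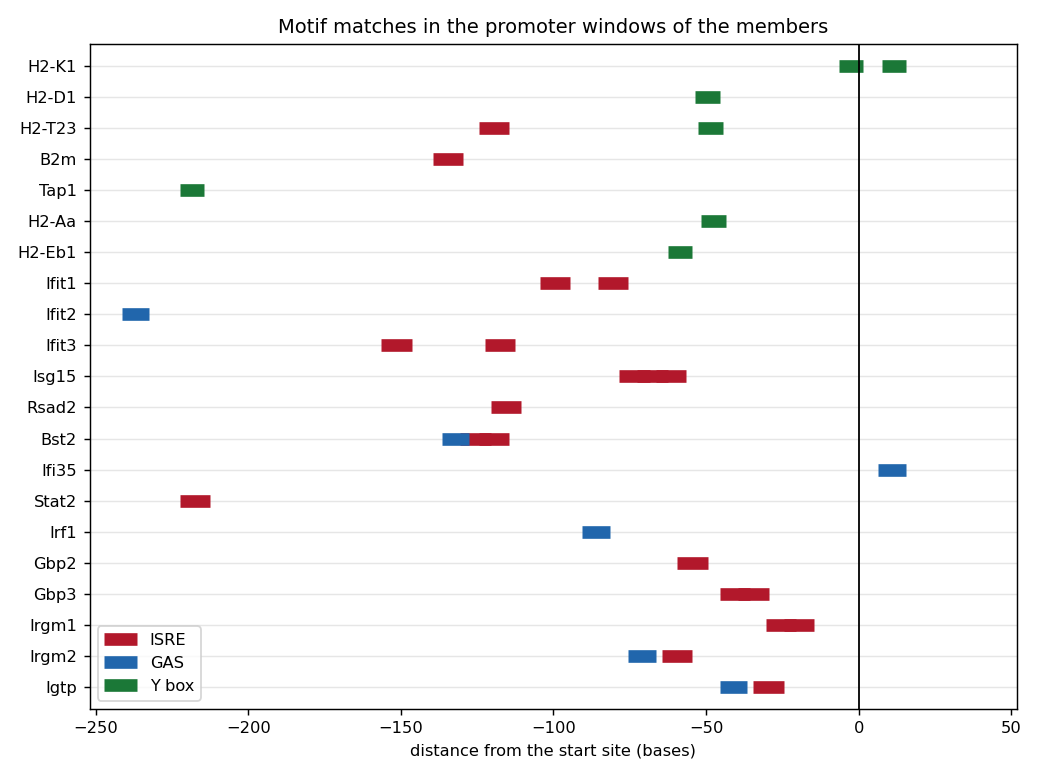
Positions of motif matches in the promoter windows of the 21 genes that had one, by distance from the start site in bases (0 is the start, upstream to the left). ISRE matches of the type I and type II genes and Y box matches of the MHC genes lie mostly within 150 bases upstream of the start, and Stat2 and Tap1 have theirs farther upstream.

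The RNA-seq libraries held 11661207 (HF1), 11824128 (HF2), 22543471 (HB1) and 18082686 (HB2) reads on genes, and the Ribo-seq libraries 387980, 1056546, 257086 and 141890 in the same order, as estimated from the steps of 1 read in the low RPKM values. Behind the 34 genes, 27 had at least 100 reads in each RNA-seq library, but only 9 reached 100 footprint reads over all 4 Ribo-seq libraries together. Counting intervals given below cover counting error only, since PCR copies are counted as separate reads. Hepatocyte markers summed to 46757 and 48689 RPKM in HF1 and HF2 and to 57810 and 55009 in HB1 and HB2, so they were higher in both HB libraries. Of the 8 genes, 5 had a log2 fold change above 0 and 3 below. Markers of T and NK cells summed to at most 5.62 RPKM, of B cells to at most 6.31 and of dendritic cells to at most 13.0. Neutrophil markers were at 54.0 RPKM in HF2 and between 3.48 and 8.44 in the other RNA-seq libraries. Sinusoidal endothelial markers spanned 58.0 to 68.7 RPKM, and stellate cell markers 29.6 to 67.5, highest in HB1.

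Levels are given as RPKM (reads per kilobase of gene, scaled to library size), a unit per length that allows genes to be ranked. Class I chains stood at the top of the set in mRNA: B2m had a mean of 2500 RPKM over the 4 libraries, H2-Q10 (a secreted class I heavy chain made mainly by the liver) 1649, H2-K1 1103 and H2-D1 377. Bst2, which encodes tetherin and retains budding virus at the cell surface, followed with 259 RPKM and H2-T23, the Qa-1 chain read by NK cells, with 157. Iigp1, Cd74, Stat2, Irf7 and Ifi35 lay between 29.7 and 56.2 RPKM. The remaining genes lay at or below the 24.2 RPKM of H2-Aa, and Ciita, Gbp2 and Ifit2 were under the mean of 1 RPKM that was required for the test.

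**Figure D2:**
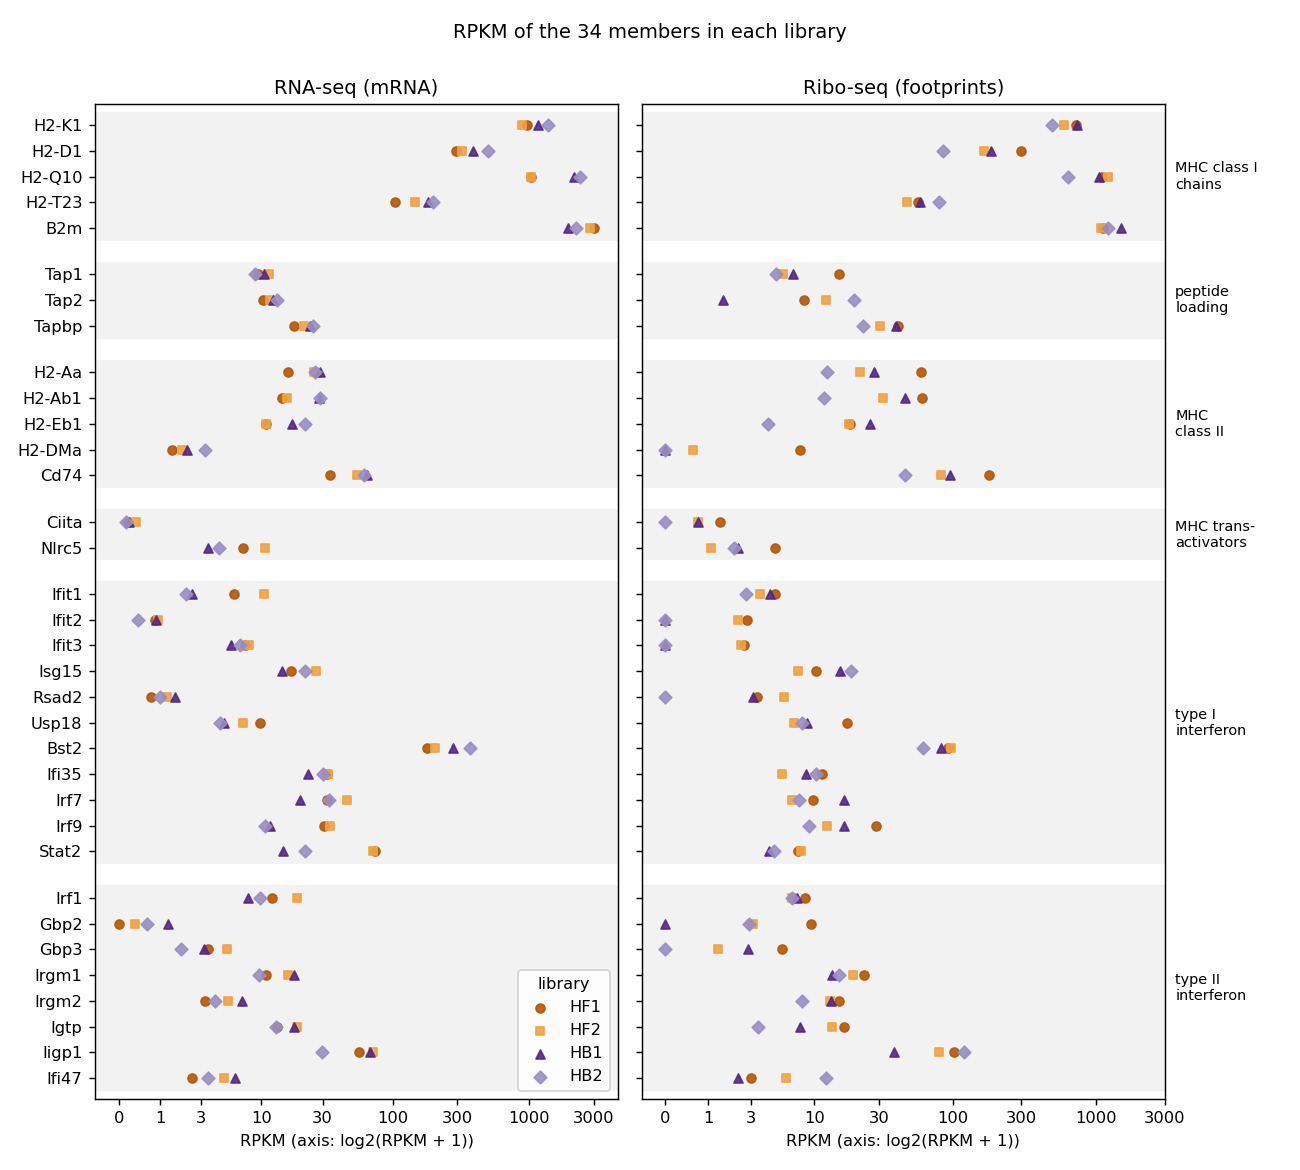
RPKM of each of the 34 genes in each library, RNA-seq on the left and Ribo-seq on the right, on an axis of log2(RPKM + 1). Each symbol is 1 library. In RNA-seq the HB libraries (purple) lie to the right of the HF libraries (orange) for the 4 class I heavy chains and the 5 class II genes, and to the left for B2m, Nlrc5, Ifit1, Irf9 and Stat2.

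The comparison of HB with HF asked how betaine changed the livers of mice on the high-fat diet, at the mRNA level first. The type I genes Stat2, Irf9 and Ifit1 fell, and no gene of the set was called higher. A gene was called when groups differed by over 1 on log2(RPKM + 1) and the unadjusted limma p was under 0.001, the limits the study set for its transcriptome. By this rule 6.56% of the 10687 genes tested were lower in HB and 2.3% higher, and of the 31 genes of the set that were tested 3 were lower and 0 higher. At an adjusted p under 0.05 with no limit on the fold, a rule added after the data were seen, 4 genes of the set were lower (19.1% of all tested genes) and 3 were higher (7.92% of all). Both HB values lay above both HF values for 12 of the 31 genes (24.8% of all) and below them for 10 (43.3% of all). In bulk liver, fewer cells of a type and less RNA per cell cannot be told apart.

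The lists differed in their medians. The median log2 fold change was 0.52 for the class I chains, 0.52 for class II, 0.21 for peptide loading, -0.05 for the type II list and -0.42 for the type I list, beside -0.19 for all tested genes. Of the transactivators only Nlrc5 was tested, at -0.98. Values above 0 were seen in 5 of 5 class II genes, 4 of 5 class I chains, 2 of 3 loading genes, 2 of 7 type II genes and 2 of 10 type I genes. These are descriptions of the lists without a test. When the log2 values were shifted to a common median in each library, the median of all tested genes became 0.08 in place of -0.19, and all genes split into 540 higher and 291 lower in place of 246 and 701 (65.0% of calls higher in place of 26.0%). Under that scaling the list medians were 0.79 (class I chains), 0.80 (class II), 0.48 (loading), 0.22 (type II) and -0.15 (type I), so the type II median changed sign and type I remained the lowest of these 5 lists.

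**Figure D3:**
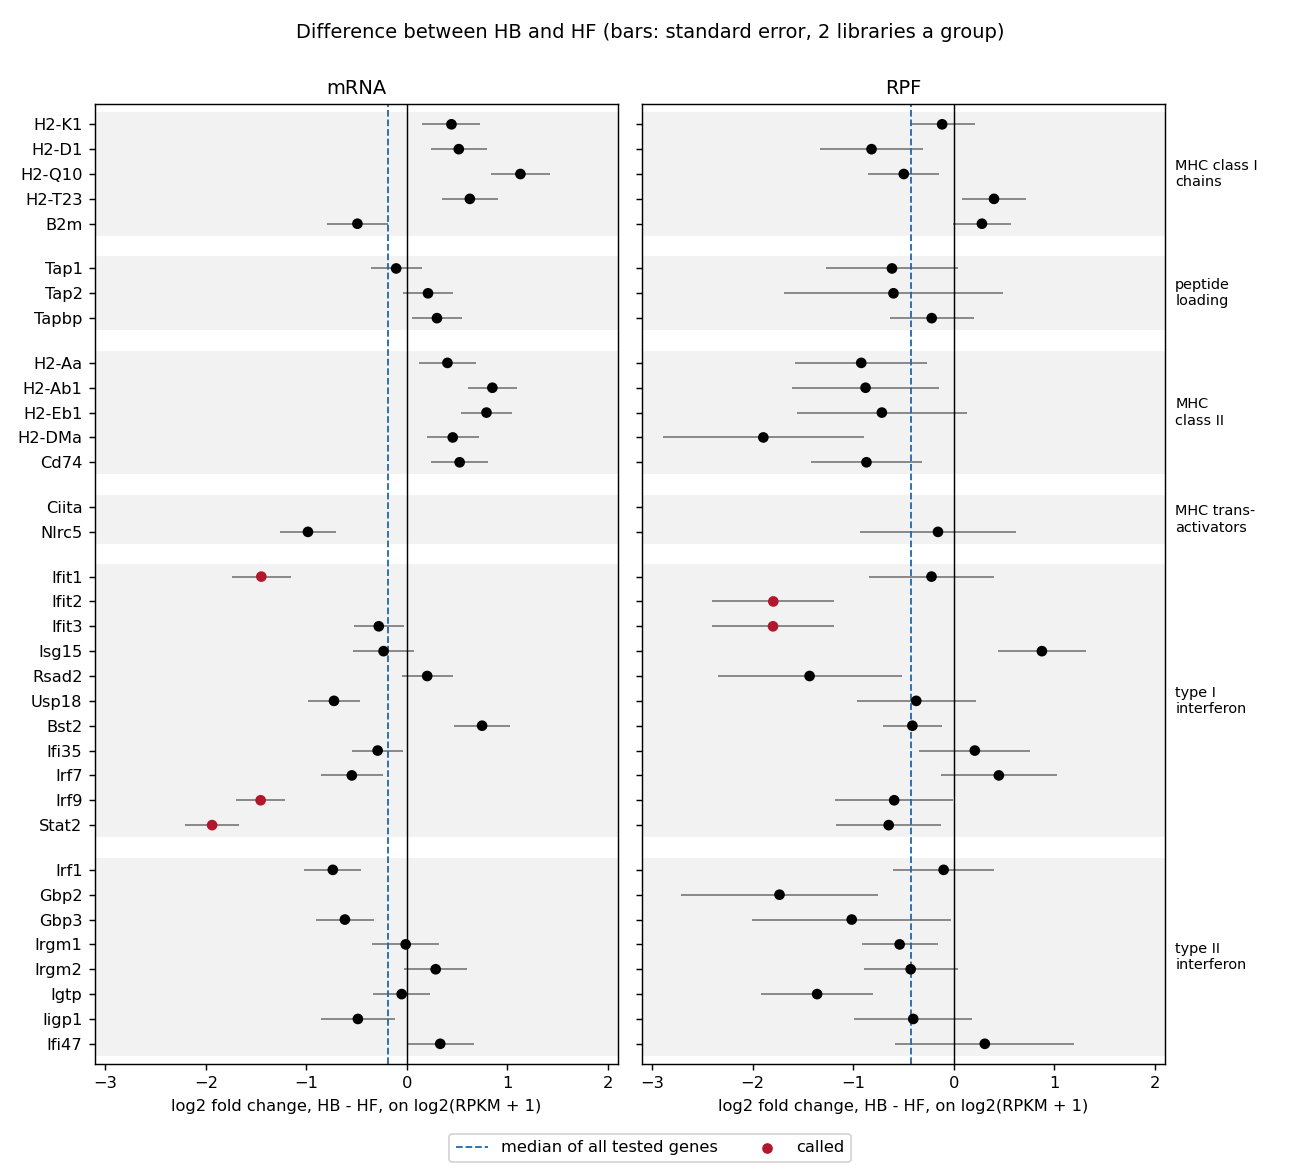
Log2 fold change of each gene, HB minus HF, on log2(RPKM + 1), for mRNA (left) and RPF (right), with the standard error as a bar (2 libraries per group). Red points are called, and the dashed line is the median of all tested genes (-0.19 for mRNA, -0.43 for RPF). In mRNA the MHC genes apart from B2m, Tap1 and Nlrc5 lie to the right of 0 and most type I genes to the left.

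Within the type I list the called genes were the ISGF3 subunits Stat2 and Irf9 and the effector Ifit1. Stat2 (ENSMUSG00000040033.16, chr10:128270559-128292849), a subunit of ISGF3, was at 73.7 and 71.1 RPKM in HF1 and HF2 and at 14.9 and 22 RPKM in HB1 and HB2. The groups did not overlap, and the log2 fold change was -1.94 ± 0.27 (SE over 2 libraries per group, limma adjusted p = 0.00523). Irf9 (chr14:55603571-55610030), the DNA-binding subunit, was at 30.7 and 34.4 RPKM in HF and at 11.8 and 10.7 RPKM in HB, a log2 fold change of -1.45 ± 0.24 (adjusted p = 0.00581). Both HB values lay far below both HF values. Ifit1 (chr19:34640871-34650009), which binds viral RNA that lacks host cap methylation, was at 5.92 and 10.5 RPKM in HF and at 2.44 and 2.1 RPKM in HB, a log2 fold change of -1.45 ± 0.29 (adjusted p = 0.00931). The HF libraries differed from each other here, and the call was lost without HF2, without HB2, with a mean RPKM of at least 5, without any filter and under a common median, with log2 fold changes between -1.08 and -1.45. Without HF2 the call of Irf9 was lost too (-1.38). Markers of immune cells moved in both directions. Kupffer cell and macrophage markers were higher, at 192 and 242 RPKM in HF and 325 and 318 in HB. Dendritic cell markers summed to 12.0 and 13.0 RPKM in HF and 3.22 and 3.47 in HB. Pan-leukocyte markers summed to 14.7 and 19.9 in HF and 11.3 and 11.5 in HB, although 1 of the 3 genes had a log2 fold change above 0. Both neutrophil genes tested, S100a8 and S100a9, were lower at an adjusted p under 0.05, from 8.44 and 54.0 RPKM over the neutrophil list in HF to 3.48 and 4.32 in HB. The part of these cells in the type I difference was not tested.

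The other type I genes were not called. Of the 10 tested, 8 had a log2 fold change below 0 (6435 of all 10687 genes did) and 6 had both HB values below both HF values (43.3% of all), these being the 3 called genes, Usp18, Ifit3 and Ifi35. Irf7, the factor that amplifies interferon production, was at 32.2 and 45.5 RPKM in HF and at 20.1 and 33.3 in HB, with overlapping groups (-0.55 ± 0.31, adjusted p = 0.21). The ratio of Stat2 to Irf7 within a library was 2.29 and 1.56 in HF and 0.745 and 0.662 in HB. Usp18, which encodes the deISGylase that restrains the type I receptor, was at 9.73 and 7.16 RPKM in HF and at 4.83 and 4.50 in HB (-0.73 ± 0.26, adjusted p = 0.0631). Bst2 was at 178 and 206 RPKM in HF and at 277 and 374 in HB, so both HB values were higher (0.75 ± 0.28, adjusted p = 0.0721). Isg15, a ubiquitin-like modifier that carries 3 ISRE matches, was at 17.1 and 26.6 RPKM in HF and at 14.7 and 22.2 in HB, and its groups overlapped. Ifit3, Ifi35 and Rsad2 had log2 fold changes between -0.29 and 0.20, and Ifit2 was below 1 RPKM in every library. The lists of ISRE matches and of called genes were therefore not the same: Stat2 and Ifit1 have a match, and so have Isg15, Ifit3, Rsad2 and Bst2, while the windows of Irf9 and Irf7 had none.

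Class I heavy chain mRNAs were higher in both HB libraries than in both HF libraries, and B2m was lower. H2-Q10 (ENSMUSG00000067235.14, chr17:35470089-35474563) was at 1033 and 1035 RPKM in HF and at 2158 and 2372 RPKM in HB, a mean ratio of 2.19 and a log2 fold change of 1.13 ± 0.29 (adjusted p = 0.0206). It passed the adjusted threshold but not the unadjusted limit of 0.001, which it passed without the variance trend, with the replicate number as a block and without HB1. Its adjusted p was 0.145 without HF1, 0.121 without HF2 and 0.0837 with no filter. H2-K1, a classical heavy chain, was at 971 and 894 RPKM in HF and at 1160 and 1384 in HB (0.44 ± 0.29, adjusted p = 0.274). H2-D1, the other classical chain, was at 293 and 324 RPKM in HF and at 389 and 500 in HB (0.52 ± 0.28, adjusted p = 0.188), and H2-T23 at 103 and 146 RPKM in HF and at 183 and 198 in HB (0.63 ± 0.28, adjusted p = 0.118). B2m (chr2:122147686-122153083), the light chain that all these heavy chains need, was at 3022 and 2818 RPKM in HF and at 1926 and 2235 in HB (-0.49 ± 0.30, adjusted p = 0.252). Apart from H2-Q10, the differences of single chains did not pass the test.

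Because heavy and light chains pair in equal numbers in the protein, the 4 heavy chains were set beside B2m within each library, a comparison chosen after the values were seen. The ratio of their summed RPKM to that of B2m was 0.794 and 0.851 in HF1 and HF2 and 2.02 and 1.99 in HB1 and HB2. In reads, the heavy chains took 59.1% (exact binomial 95% interval 58.8 to 59.5) and 60.7% (60.4 to 61.1) of heavy chain and B2m reads in HF, and 78.4% (78.2 to 78.6) and 78.2% (78.0 to 78.4) in HB. The difference between groups was far wider than that between libraries of a group. An exact permutation test of 2 against 2 libraries cannot give a two-sided p below 0.333, so the ratio is given without a test. H2-Q10 also stood higher relative to H2-K1, at 1.06 and 1.16 in HF and 1.86 and 1.71 in HB. The heavy chains share sequence with each other and with other MHC genes: 8.79% of the stretches of 50 bases in the H2-K1 transcript also lie in transcripts of other genes, as do 14.3% in H2-D1, 11% in H2-Q10 and 28.8% in H2-T23, and none in B2m. The labels give 50 cycles for RNA-seq and the methods 100, so these shares apply to reads of 50 bases and those of longer reads were not computed. How the authors' mapping divided such reads is not stated, so the values of single heavy chains are less certain than their sum.

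Footprints gave the opposite order for this ratio. The Ribo-seq reads behind it were many enough in every library (430 to 4251 on the 5 class I chains). Heavy chains took 77.9% (75.9 to 79.9) and 77.0% (75.7 to 78.3) of these footprints in HF1 and HF2, and 71.2% (68.4 to 73.8) and 66.0% (61.4 to 70.5) in HB1 and HB2. The ratio of summed RPKM was 1.94 and 1.87 in HF and 1.37 and 1.08 in HB. In mRNA both HB libraries lay above both HF libraries, and in footprints both lay below. H2-Q10 footprints were at 1102 and 1207 RPKM in HF and at 1051 and 636 in HB (log2 fold change -0.50 ± 0.35, adjusted p = 0.653), H2-K1 at 718 and 596 in HF and 736 and 496 in HB (-0.11 ± 0.32, adjusted p = 0.904), and B2m at 1121 and 1077 in HF and 1487 and 1199 in HB (0.28 ± 0.29, adjusted p = 0.729). None of these passed the test. Stretches of 28 bases, the approximate insert size given in the labels, are shared with other genes for 25.3% to 52.2% of each heavy chain transcript, and for none of B2m, and shares for longer footprints were not computed.

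**Figure D4:**
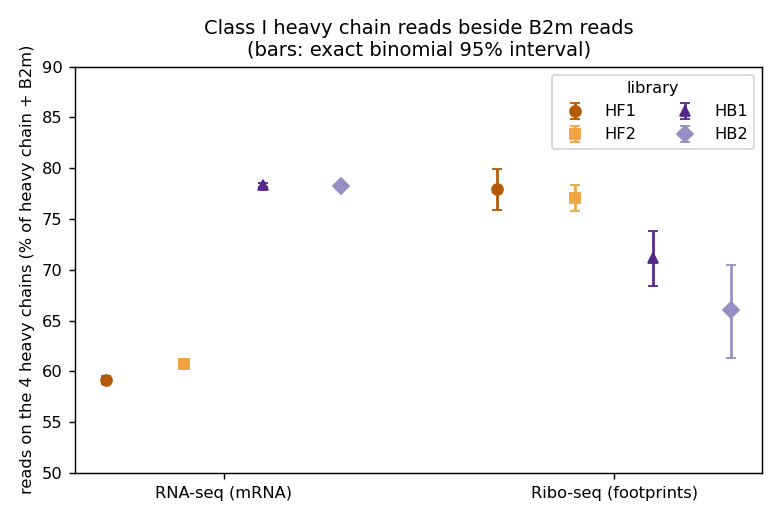
Share of reads on the 4 class I heavy chains (H2-K1, H2-D1, H2-Q10 and H2-T23) out of their reads and those of B2m, in percent, per library and assay, with exact binomial 95% intervals (counting error only). The axis starts at 50%. In RNA-seq the HB libraries stand at 78.4% and 78.2% against 59.1% and 60.7% in HF, and in Ribo-seq they stand at 71.2% and 66.0% against 77.9% and 77.0%.

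All 5 class II genes were higher in both HB libraries than in both HF libraries in mRNA, against 24.8% of all tested genes, and H2-Ab1 and H2-Eb1 rose at an adjusted p under 0.05 (7.92% of all tested genes were higher by this rule). H2-Ab1 (chr17:34257689-34269419), the beta chain of I-A, was at 14.6 and 16.1 RPKM in HF and at 28.1 and 28.8 in HB (0.85 ± 0.24, adjusted p = 0.0298). H2-Eb1 (chr17:34305867-34316674), the beta chain of I-E, was at 10.9 and 10.8 RPKM in HF and at 17.5 and 21.9 in HB (0.79 ± 0.25, adjusted p = 0.0423). Cd74, the invariant chain that guards the class II groove until peptide is loaded, was at 34.4 and 54.5 RPKM in HF and at 64.5 and 61.0 in HB (0.52 ± 0.28, adjusted p = 0.193). H2-Aa, the alpha chain of I-A, was at 16.2 and 25.8 RPKM in HF and at 28.5 and 26.3 in HB (0.40 ± 0.28, adjusted p = 0.307). HF1 was the lowest library for both, and HF2 came close to the HB values. H2-DMa, which exchanges peptides on class II, was at 1.45 and 1.89 RPKM in HF and at 2.14 and 3.24 in HB. No class II gene was called by fold and unadjusted p. The adjusted p of H2-Ab1 rose to 0.249 without HF1, 0.131 without HF2 and 0.0617 with no filter. That of H2-Eb1 rose to 0.239 without HF1, 0.208 without HF2, 0.0689 without HB2, 0.0565 under a common sum, 0.0537 with voom and 0.0809 with no filter, so neither gene passed when either HF library was left out.

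Markers of Kupffer cells and macrophages moved in the same direction. Their 12 genes summed to 192 and 242 RPKM in HF1 and HF2 and to 325 and 318 in HB1 and HB2, 9 of the 12 had a log2 fold change above 0 (4252 of all 10687 genes did), and 5 were higher in HB at an adjusted p under 0.05 (7.92% of all). The Kupffer cell lectin Clec4f went the other way, at 72.6 and 64.4 RPKM in HF and 48.9 and 49.6 in HB (-0.47 ± 0.25, adjusted p = 0.182). The sum of the 5 class II genes over the sum of these markers was 0.403 and 0.451 in HF and 0.433 and 0.445 in HB, so it differed by less than the spread between the HF libraries. Of the 8 dendritic cell markers, whose sum was lower in HB, 2 were tested and both were lower at an adjusted p under 0.05, and B cell markers summed to 2.98 and 6.31 in HF and 3.13 and 1.47 in HB. The part of these cell types in the class II difference was not tested.

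Class II footprints were few and did not repeat the mRNA pattern. The 5 genes had 156 and 206 footprint reads in HF1 and HF2 and 63 and 13 in HB1 and HB2. In reads per library size (RPM) this was 402 (exact Poisson 95% interval 341 to 470) and 195 (169 to 223) in HF, and 245 (188 to 314) and 91.6 (48.8 to 157) in HB. The 2 libraries of each group differed beyond counting error, and the groups overlapped. All 5 log2 fold changes in footprints were below 0, as were 7879 of all 11190 genes tested. The median of the 5 was -0.88, beside -0.43 for all genes tested, and the smallest adjusted limma p was 0.589. H2-DMa had 6 footprint reads in all. The ratio of class II genes to Kupffer cell and macrophage markers, which overlapped in mRNA, was 0.966 and 0.639 in HF and 0.561 and 0.511 in HB in footprint RPKM, lower in both HB libraries.

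The transactivator Nlrc5 (chr8:94434356-94527272) was lower in HB while most class I genes it acts on were not. Its mRNA was at 7.08 and 10.8 RPKM in HF and at 3.52 and 4.40 in HB (-0.98 ± 0.28, adjusted p = 0.029). The adjusted p was 0.25 without HF2, 0.0612 without HB1, 0.0887 under a common median (where the log2 fold change was -0.71) and 0.0949 with no filter. Ciita was at 0.174 and 0.327 RPKM in HF and at 0.188 and 0.132 in HB, from 11 to 23 reads per library, and was not tested. Class I peptide loading showed small differences. Tapbp (tapasin) was at 18.3 and 21.7 RPKM in HF and at 24.2 and 25.2 in HB (0.30 ± 0.25, adjusted p = 0.386). Tap2 was at 10.3 and 11.8 RPKM in HF and at 12.4 and 13.5 in HB (0.21 ± 0.25, adjusted p = 0.549). Tap1, the other subunit of the peptide transporter, was at 9.51 and 11.5 RPKM in HF and at 10.4 and 8.93 in HB, with overlapping groups (-0.11 ± 0.25, adjusted p = 0.777).

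The HF and HB groups overlapped for 5 of the 7 type II genes tested, and 2 were lower in both HB libraries (43.3% of all tested genes were). None was called, beside 6.56% of all genes called lower and 2.3% higher. Iigp1, an immunity-related GTPase that attacks the vacuoles of intracellular parasites, was at 56.2 and 71.1 RPKM in HF and at 67.9 and 29.5 in HB (-0.49 ± 0.37, adjusted p = 0.346). Igtp, of the same family, was at 13.5 and 19.0 RPKM in HF and at 18.2 and 13.1 in HB (-0.05 ± 0.28, adjusted p = 0.908), and Irgm1, a regulatory GTPase, at 10.9 and 16.4 in HF and 18.1 and 9.68 in HB (-0.01 ± 0.33, adjusted p = 0.982). HB1 was above HB2 for each of these 3. Of the 8 type II genes, 8 were higher in HF2 than in HF1, against 48.0% of all tested genes, and 7 were higher in HB1 than in HB2, against 53.0% of all, with median log2 differences of 0.51 and 0.61. The exception in HB was Irf1, at 7.83 RPKM in HB1 and 9.79 in HB2. Irf1, the transcription factor induced early by interferon gamma, was at 12.2 and 19.0 RPKM in HF (-0.74 ± 0.28, adjusted p = 0.0802), and Irf1 and Gbp3 were the only 2 type II genes tested whose groups did not overlap. Gbp3, Irgm2 and Ifi47 lay between 1.84 and 6.93 RPKM in all libraries, with log2 fold changes of -0.62, 0.29 and 0.33. Gbp2 rested on 0 and 9 reads in HF and 71 and 27 in HB and was below 1.3 RPKM in all libraries, so its higher values in HB are given without a test. Igtp and Irgm2 overlap in the annotation on the same strand, and 12.3% of the stretches of 50 bases in Igtp also lie in Irgm2.

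Type I genes shared the order of the HF libraries but not that of the HB libraries. In the type I list, 9 of 11 genes were higher in HF2 than in HF1 and 5 of 11 were higher in HB1 than in HB2. Without HB1, the median of the type II list was -0.43 and that of the type I list -0.18 (main values -0.05 and -0.42), and without HB2 they were 0.17 and -0.60. The order of the type I and type II medians thus turned with the HB library used. For Stat2 the log2 fold change lay between -2.20 and -1.67 when any one of the 4 libraries was left out. Each such fit leaves a single library in 1 group.

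**Figure D5:**
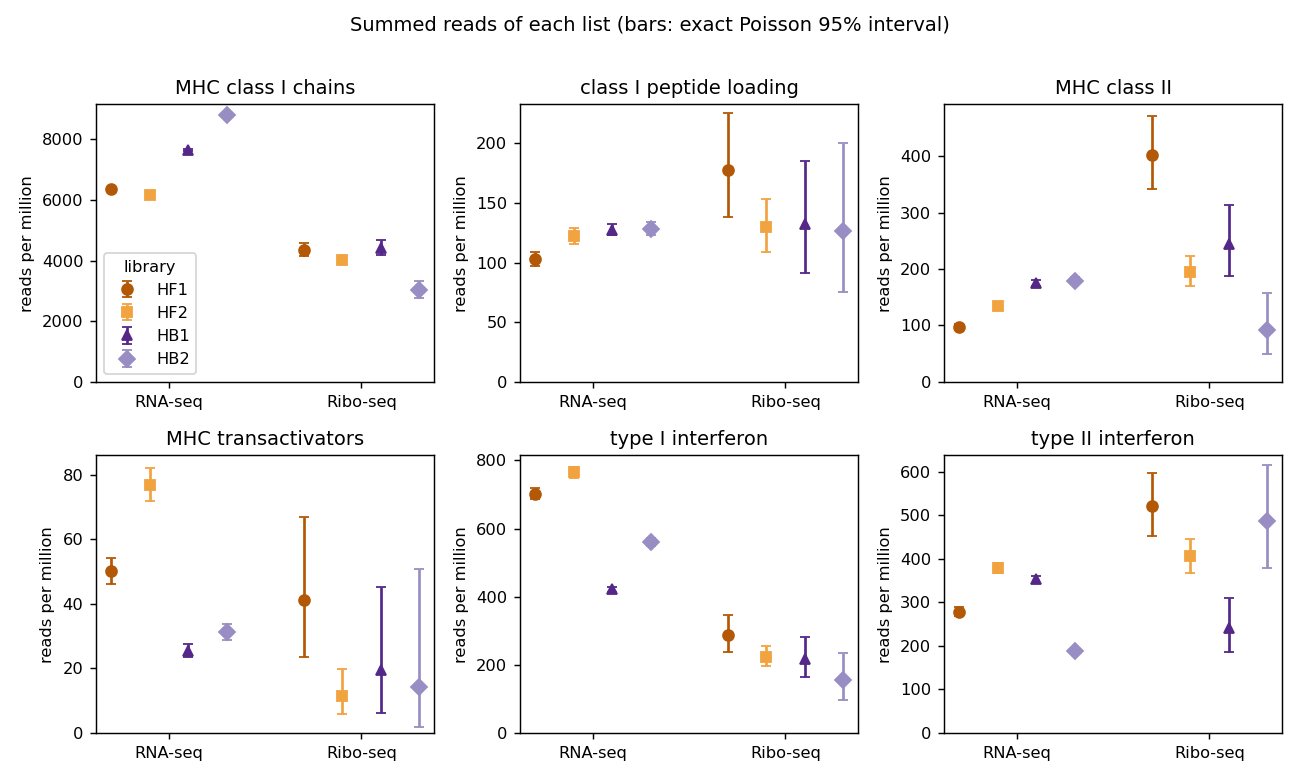
Summed reads of each list scaled to library size (RPM), per library in RNA-seq and Ribo-seq, with exact Poisson 95% intervals (counting error only). In RNA-seq the class I and class II lists are higher in both HB libraries and the type I and transactivator lists lower, although the type I list overlapped between groups in summed RPKM (389 and 444 in HF, 377 and 507 in HB). The type II list separates HB1 from HB2, and the Ribo-seq intervals of the small lists are wide.

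The other genes of the pathway were read from lists drawn up by function. Of 16 genes of interferon ligands, receptors and signalling, 10 were tested in mRNA and 0 were called, and 1, the feedback inhibitor Socs3, was lower at an adjusted p under 0.05, beside 6.56% of all tested genes called lower and 19.1% lower at that adjusted p. The receptor chains Ifnar1, Ifnar2, Ifngr1 and Ifngr2 had log2 fold changes between -0.44 and 0.51. The ligands Ifnb1, Ifnl2 and Ifnl3 were listed at 0 in all 4 RNA-seq libraries. Of 15 genes of nucleic acid sensing, 11 were tested and 0 called, and 1, the myeloid transcription factor Irf8, was lower at an adjusted p under 0.05 (6.29 and 7.15 RPKM in HF, 2.26 and 3.53 in HB, adjusted p = 0.0231). In this list 10 of the 11 had a log2 fold change below 0, beside 6435 of all 10687 genes.

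Among 41 other interferon-stimulated genes, 34 were tested and 3 were called lower (6.56% of all tested genes were) and 0 higher. Mx2, annotated as a polymorphic pseudogene, was at 5.24 and 7.02 RPKM in HF and 1.23 and 1.67 in HB (-1.54 ± 0.26, adjusted p = 0.00581). Oas2, which makes the second messenger of RNase L, was at 8.97 and 8.16 in HF and 1.98 and 2.68 in HB (-1.53 ± 0.25, adjusted p = 0.00561). Adar, the RNA editing enzyme with an interferon-induced isoform, was at 11.8 and 10.4 in HF and 3.75 and 4.87 in HB (-1.19 ± 0.25, adjusted p = 0.0108). The most abundant genes of the list were higher in both HB libraries without passing the test: Ifitm3, an inhibitor of viral entry, was at 458 and 568 RPKM in HF and 638 and 860 in HB (0.54 ± 0.30, adjusted p = 0.2), and Ifitm2 at 172 and 178 in HF and 276 and 310.4 in HB (0.74 ± 0.26, adjusted p = 0.0587). The secreted glycoprotein gene Lgals3bp rose, from 11.4 and 11.4 RPKM in HF to 31.4 and 21.9 in HB (1.14 ± 0.27, adjusted p = 0.0146). These 3 were named after their values were seen. The summed RPKM of the list was 904 and 1081 in HF and 1217 and 1519 in HB, whereas the median log2 fold change was -0.28, with 8 genes lower and 1 higher at an adjusted p under 0.05, beside 19.1% and 7.92% of all tested genes. Among 31 other genes of antigen processing and MHC, 24 were tested, 0 were called, the median was 0.24, and 4 were higher and 3 lower at an adjusted p under 0.05. Psmb9 and H2-Q4 are given here after their values were seen. The immunoproteasome subunit Psmb9 was higher, at 18.2 and 20.6 RPKM in HF and 35.9 and 36.8 in HB (0.88 ± 0.24, adjusted p = 0.0272). The class I gene H2-Q4 was lower, at 94.7 and 103 RPKM in HF and 45.2 and 48.4 in HB (-1.07 ± 0.25, adjusted p = 0.0141), so not every class I heavy chain gene was higher in HB.

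In footprints, 33 of the 34 genes were tested and a call needed an absolute log2 difference over 1 at an unadjusted p under 0.05. By this rule 7.86% of 11190 genes were lower in HB and 1.58% higher, and in the set 2 were lower, Ifit2 and Ifit3, and 0 higher. Both rested on a few reads. Ifit2 had 4 and 9 footprint reads in HF1 and HF2 and 0 in both HB libraries, and Ifit3 had 2 and 5 in HF and 0 in HB. Ifit2 was at 2.71 and 2.24 RPKM in HF, while a count of 0 allows up to 3 reads, worth 3.07 and 5.55 RPKM in HB1 and HB2. The corresponding values of Ifit3 were 2.58 and 2.37 RPKM in HF and limits of 5.84 and 10.6 in HB. A lower level was therefore not detectable at this depth for either gene, and both had an adjusted p of 0.493 in limma. No gene of the set, nor any gene in all, had an adjusted p under 0.05, and 2 of the 33 and 1122 of all genes had an unadjusted p under 0.05 in the fit of all 4 libraries. Voom on recovered reads gave 83 genes with an adjusted p under 0.05, none of them in the set, the replicate block gave 24 and a mean RPKM of at least 5 gave 1, also none in the set. Fits without HF1 or HF2, which leave a single HF library, gave 701 and 704 genes and 3 of the set each, with adjusted p-values of 0.0149 and 0.0203 for both Ifit2 and Ifit3. In addition, 64.0% of the stretches of 28 bases in Ifit3 also lie in Ifit3b.

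The 3 genes that fell in mRNA had few footprints. Stat2 was at 7.49 and 7.82 RPKM in HF and 4.35 and 4.72 in HB, from 13, 37, 5 and 3 reads (-0.65 ± 0.52, adjusted p = 0.663). Irf9 was at 28.6 and 12.5 RPKM in HF and 16.6 and 9.02 in HB (-0.59 ± 0.59, adjusted p = 0.72), and Ifit1 had 19 footprint reads in all. Iigp1, with 472 footprint reads the deepest of the interferon genes, was at 102 and 80.3 RPKM in HF and at 38.6 and 120 in HB (-0.40 ± 0.59, adjusted p = 0.815). In mRNA HB1 was the higher of the HB libraries for this gene and in footprints HB2 was, and the sources do not say which libraries of the assays share an animal. Bst2 was at 92.6 and 96.2 RPKM in HF and at 81.9 and 61.1 in HB (-0.41 ± 0.29, adjusted p = 0.653). Over the set, 27 of 33 log2 fold changes in footprints were below 0, beside 7879 of all 11190 genes tested. The median was -0.54 over the set and -0.43 over all genes tested.

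Translation efficiency (TE) was taken as the RPF RPKM over the mRNA RPKM of libraries with the same group and number. A call needed an absolute log2 difference over 2 at an unadjusted p under 0.05, which 4.6% of 9455 genes met downward and 1.49% upward. In the set 31 genes were tested and 0 were called in either direction, 1 had an unadjusted p under 0.05 and none an adjusted p under 0.05. That gene was H2-Q10, whose TE was 1.07 and 1.17 in HF and 0.487 and 0.268 in HB (-1.62 ± 0.65, adjusted p = 0.404 in limma). The TE of B2m was 0.371 and 0.382 in HF and 0.772 and 0.537 in HB (0.77 ± 0.66, adjusted p = 0.658). The 5 class II genes were all below 0 in TE (median -1.51) and 7 of 10 type I genes above 0 (median 0.68). Of all 9455 genes tested, 5977 were below 0 and 3478 above, with a median of -0.35. Since TE contains the mRNA value in its denominator, these directions repeat those of the mRNA in part.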

How the data were processed

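RNA-seq of polyadenylated mRNA and Ribo-seq were compared between the HB and HF livers, with 2 libraries per group and assay. The deposited values are RPKM per gene, which the authors made by mapping reads with FANSe2 to mm10, and the submitters' processing notes also name edgeR. Library totals were estimated as the whole numbers at which low RPKM values became whole reads, with a tolerance of 0.003, and 99.99% of values did. Reads recovered this way summed to 98.6% to 100.8% of the totals in RNA-seq and 104.6% to 106.3% in Ribo-seq, where gene lengths are less certain.

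Genes whose RPKM averaged 1 or more in the 4 libraries of one assay were fitted on log2(RPKM + 1) with limma 3.58.1 in R 4.3.3 (linear model on group, moderated with a variance trend, two-sided, Benjamini-Hochberg adjustment over all genes tested). A pseudocount of 1 understates the change of low genes. Calls followed the study's limits. The ratio of footprints to mRNA was fitted in the same way with libraries paired by number only. Adjusted p-values in the text are from limma. Tested on simulated data, the mRNA fit called 98% and the RPF fit 96% of 200 genes changed by 2 on the log2 scale, and 0% and 3.93% of the unchanged genes. The spread between simulated libraries was assumed and not taken from the data. For RPF the changed genes were drawn only from genes well above the RPKM filter. The 96% therefore does not apply to genes with few footprints, as most of this set are.

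The members and lists were chosen with earlier results of these data known, so no list was tested. All 34 genes were accounted for. Values in every library were planned for called genes and for the 3 genes of each list with the highest mean mRNA, other genes were described by range, context genes were to be named where called, and those given beyond this were added after their values were seen. Marker lists of hepatocytes, Kupffer cells and macrophages, dendritic cells, B cells, T and NK cells, neutrophils, all leukocytes, sinusoidal endothelium and stellate cells were summed. Promoter windows came from RefSeq (GRCm38.p6), and gene positions, transcripts and shared stretches from GENCODE M21. Alternatives were the pseudocount, the filter, 2 scalings, omission of the variance trend, a replicate block, adjusted p-values, voom on recovered reads, and leaving out each library. A crossed block, a minimum of 100 footprint reads and the adjusted threshold at any fold were added after seeing the data.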

Additional observations from a re-analysis of the deposited data

How the results depend on the processing

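Among genes called or past the adjusted threshold, no log2 fold change changed sign, calls were gained 4 times (H2-Q10) and lost 14 times (Ifit1, Irf9 and the footprints of Ifit2 and Ifit3), counting the setting by adjusted p, and the causes were not tested. Under a common median Tap1, Isg15, Irgm1 and Igtp changed sign in mRNA, and H2-K1, Tapbp, Nlrc5, Ifit1 and Irf1 in footprints. The type II median (-0.05) changed sign too, to 0.22 under a common median, 0.18 without HF2 and 0.17 without HB2. Adjusted p-values of H2-Q10, H2-Ab1, H2-Eb1 and Nlrc5 crossed 0.05 without HF2 and with no filter. One gene, H2-Q10, was called higher in mRNA without the variance trend, with the replicate block, by adjusted p and without HB1 (range without single libraries 0 to 1). Genes called lower ranged from 1 (Stat2, without HF2) to 3. Stat2 was called under every alternative run, although the fits without 1 library leave a single library in that group. With no filter, adjusted limma p-values of the 3 called genes crossed 0.05 as well, at 0.0539 for Stat2 and Irf9 and 0.0643 for Ifit1.

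Median log2 fold changes under a common median were 0.48 for loading, 0.79 for class I chains, 0.80 for class II and -0.15 for type I. Class II gave 0.64 with a pseudocount of 0.1, 0.66 with a mean RPKM of at least 5 and 0.64 with voom, and transactivators -0.54 with no filter. Leaving out single libraries gave 0.34 to 0.68 for class I, 0.34 to 0.79 for class II, -1.26 to -0.71 for transactivators, -0.60 to -0.18 for type I and -0.43 to 0.18 for type II. With no filter, 0 of 16758 genes had an adjusted limma p under 0.05 in mRNA, and 4919 an unadjusted one.

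In footprints 1 gene (Isg15) was called higher under a common median. Those called lower were 0 with a mean RPKM of at least 5, under a common median, with the replicate block, by adjusted p, with voom and with at least 100 footprint reads, 6 under a common sum (where the median of all genes was -1.19 in place of -0.43), and 2 to 6 without single libraries (6 without HB1, 5 without HB2). TE calls lower were 2 with a pseudocount of 0.1, 6 under a common sum, 1 with the replicate block, 1 with crossed numbers of the assays, and 0 to 6 without single libraries (2 without HF2 or HB2, 6 without HB1).

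The replicate numbers gave no sign of pairing: deviations of same-numbered libraries correlated across genes at r = -0.10 in mRNA and -0.01 in RPF. Under the replicate block, 498 genes were called higher and 1229 lower in mRNA (246 and 701 without it), and 1 and 3 of the set. Crossed numbers, added after seeing the data, gave 474 and 1303, and 0 and 3 of the set.

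Depth limits the footprints: 29 of the 34 genes had under 50 reads in both HB libraries together, and 23 had at most 3 in HB1 or HB2.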
